A study of Mus musculus with 2 samples.

Results

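Gamma-delta (γδ) and innate-like T cells were picked from single-cell libraries of mouse blood neutrophils by the transcripts they carried, and 184 of 34768 deposited cell barcodes met the rule. The libraries were 1 from WT (C57BL/6J) mice and 1 from APP/PS1 transgenic mice, a model of Alzheimer's disease. Each was made from blood cells of 3 pooled female mice at 7 months of age with no treatment given. Red cells had been lysed and neutrophils enriched with a kit, so the T cells described here are cells that this enrichment left behind. Because there was 1 library per genotype and the mice of a genotype were pooled, no test between genotypes was possible and no p-value is given. Levels are unique molecular identifiers (UMIs) of a gene for every 1000000 UMIs in a group of cells (CPM). These libraries count the 3′ end of transcripts, so a level does not grow with the length of the gene. Every interval is at the 95% level and covers counting error only, not differences between mice. Intervals of levels and ratios also leave out the clumping of UMIs in single cells, so they are too narrow where a few cells hold most UMIs.

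γδ T cells carry a T cell receptor built from a γ and a δ chain in place of the α and β chains of CD4 and CD8 T cells, and they respond quickly, without the clonal expansion that conventional T cells need. In mice they are known to leave the thymus with a set programme. One kind makes interleukin 17 and depends on transcription factors such as Maf and Sox13, and another makes interferon γ and cytotoxic molecules under T-bet and Eomes. Other innate-like T cells, such as natural killer T cells, use an αβ receptor and the factor PLZF (Zbtb16). Interleukin 17 is known for driving the production and recruitment of neutrophils.

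A cell was taken if it had at least 1000 UMIs, at most 10% mitochondrial UMIs, less than 4% of its UMIs from the neutrophil genes S100a8 and S100a9, and at least 1 UMI of the CD3 chains Cd3e and Cd3g. It also had to hold at least 2 UMIs in all of Trdc (the constant region of the δ chain), 5830411N06Rik (Scart2, a scavenger receptor of γδ T cells) and Cxcr6 (a chemokine receptor of tissue-homing T cells), and no UMI of Cd8b1, Cd4, Cd79a or Csf1r. These genes chose the cells, so their levels are a description and support nothing. The 88 WT cells summed to 418920 UMIs, and the median cell held 4417.5 UMIs from 1720.5 genes. The 96 APP/PS1 cells summed to 497534 UMIs, and their median cell held 4884 UMIs from 1804 genes. The libraries had 83 barcodes in common, and none of them belonged to the chosen cells. The last limit, on the monocyte receptor Csf1r, removed 30 WT and 20 APP/PS1 cells.

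Trdc was found in 167 of the 184 cells, 5830411N06Rik in 101 and Cxcr6 in 104, and 61 cells held all of them. Trdc (chr14:54142851-54148868 in mm10, plus strand) had 1077 CPM in the WT and 870 CPM in the APP/PS1 cells. 5830411N06Rik (chr7:140247284-140300736, plus strand) had 590 and 500 CPM. Cxcr6 (chr9:123806475-123811760, plus strand) had 255 and 243 CPM. The sum of these genes ran from 2 to 42 UMIs per cell, with a median of 7. At the limit of 2 UMIs there were 21 cells, and 12 of them (57.1%) also had a UMI of a γ chain constant gene. Just outside, with 1 UMI, there were 24 cells, and 11 of them (45.8%) had one, so some cells with a γ chain lay outside the limit. Among the 119 double-negative T cells with no UMI of these genes, 15 (12.6%) had one.

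The γ chain, which the rule did not use, checks the label. A UMI of a γ constant gene was found in 149 of the 184 cells (81.0%, interval 74.6% to 86.4%), in 77 of 88 WT and 72 of 96 APP/PS1 cells. Summed, the γ constant genes had 531 CPM in these cells, against 25.0 CPM in CD8 T cells, 10.1 CPM in natural killer (NK) cells and 0.319 CPM in neutrophils. Trac, the constant region of the α chain, had 64.4 CPM here and 366 CPM in CD8 T cells. It was found in 35 of the 184 cells, and 26 of those also had a γ constant UMI. Only 9 cells had Trac without a γ constant UMI, 2 in WT and 7 in APP/PS1, and 26 had neither. By this measure γδ T cells made up most of the group, and αβ cells could not be told apart in the rest at this depth. Trdc alone marked T cells poorly, because NK cells had it too, at 64.6 CPM and in 18.3% of cells, against 2.08% of neutrophils. The β chain constant Trbc2 had 995 CPM here, 1057 CPM in CD8 T cells and 169 CPM in NK cells.

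The γ constant genes lie on chromosome 13. Tcrg-C1 (chr13:19214103-19217024, plus strand) had 211 CPM, with 241 in WT and 185 in APP/PS1 cells. Tcrg-C2 (chr13:19304649-19307551, minus strand) had 212 CPM, with 227 in WT and 199 in APP/PS1 cells. Tcrg-C4 (chr13:19344558-19352756, plus strand) had 109 CPM, with 127 and 94.5 CPM. For each of them alone the interval of the APP/PS1 to WT ratio included 1. Tcrg-C3 (chr13:19260884-19263528, plus strand) had no UMI in any of these cells, which does not exclude a low level. Tcrg-C1 and Tcrg-C2 transcripts in GENCODE M21 were 94.5% identical over 922 aligned bases, and Tcrg-C1 and Tcrg-C3 were 96.9% identical. The split of reads between these copies is therefore uncertain, and their sum is the safer value. Summed, the γ constant genes had 594 CPM in the WT and 478 CPM in the APP/PS1 cells. Their log2 ratio was -0.31, with an interval of -0.58 to -0.05 that lay below 0. A coding stretch of 90 bases, shown to let the copies be compared, runs from base 361 to 450 of the Tcrg-C1 transcript and from base 346 to 435 of the Tcrg-C2 transcript. The stretch is written 5′ to 3′ on the transcript, from mm10, and capitals mark the 3 bases that differ.
Tcrg-C1: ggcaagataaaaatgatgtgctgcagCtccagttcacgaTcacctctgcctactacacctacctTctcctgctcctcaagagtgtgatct
Tcrg-C2: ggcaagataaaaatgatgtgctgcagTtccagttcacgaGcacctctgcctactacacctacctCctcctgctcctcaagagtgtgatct

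Variable genes of the γ and δ chains were found in 95 of the 184 cells. Trgv2 (chr13:19336573-19337167, minus strand) was by far the most counted, at 139 CPM and in 73 cells, 39 in WT and 34 in APP/PS1. It was found together with Tcrg-C2, which lies on the same strand, in 57 cells and with Tcrg-C1 in 46. Trgv2 had 0 UMIs in the 920 NK cells and 9.98 CPM in CD8 T cells. Tcrg-V4 had 14 UMIs in 12 WT cells and 3 UMIs in 3 APP/PS1 cells, too few UMIs to be tested. Tcrg-V1 was found in 7 cells and Tcrg-V6 in 3. Among δ variable genes Trdv2-2 was found in 9 cells and Trdv4 in 5, and Trdv4 was also found in 7.07% of NK cells at 22.6 CPM. Tcrg-V5, Tcrg-V7, Trdv2-1 and Trdv3 had no UMI.

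Most of the cells carried either a type 17 or a type 1 set of transcripts. Of the 184 cells, 123 held more UMIs of a type 17 list, 58 held more of a type 1 and cytotoxic list, and 3 held as many of either. For this description they were split by the gene that had chosen them: 101 cells with 5830411N06Rik, 76 with Trdc but no 5830411N06Rik, and 7 with Cxcr6 alone. The split uses the rule's own genes, so it is a description of these cells. A list of 16 genes of the type 17 programme, 5830411N06Rik left out, summed to 3582 CPM in the 5830411N06Rik+ cells and 1300 CPM in the Trdc+ 5830411N06Rik- cells. CD8 T cells had 276 CPM of it, NK cells 85.8 and neutrophils 81.4. A list of 20 type 1 and cytotoxic genes summed to 729 CPM in the 5830411N06Rik+ cells and 16098 CPM in the Trdc+ 5830411N06Rik- cells. Its level was 37598 CPM in CD8 T cells, 57625 CPM in NK cells and 799 CPM in neutrophils. The 5830411N06Rik+ cells lay below neutrophils in WT (477 against 726 CPM) and above them in APP/PS1 (955 against 860 CPM). Of the 101 5830411N06Rik+ cells, 99 had more type 17 than type 1 UMIs. Of the 76 Trdc+ 5830411N06Rik- cells, 52 had more type 1 UMIs and 22 more type 17 UMIs. An excess of 1 UMI was not rare as background, since 38.2% of neutrophils had more type 1 and 10.0% more type 17 UMIs. With an excess of at least 10 UMIs, which 1.72% of neutrophils had for type 1 and 0 of 11421 (interval up to 0.0323%) for type 17, the 76 cells held 45 type 1 and 16 type 17 cells, and 82 of the 101 5830411N06Rik+ cells were type 17. A 5830411N06Rik+ cell held 2 to 40 type 17 UMIs in WT, with a median of 17, and 6 to 68 in APP/PS1, with a median of 18. The Trdc+ 5830411N06Rik- cells held 0 to 565 type 1 UMIs in WT, with a median of 6, and 0 to 284 in APP/PS1, with a median of 45. The Trdc+ 5830411N06Rik- cells were thus mixed, and the plot of both lists per cell shows a type 17 group within them.

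**Figure D1:**
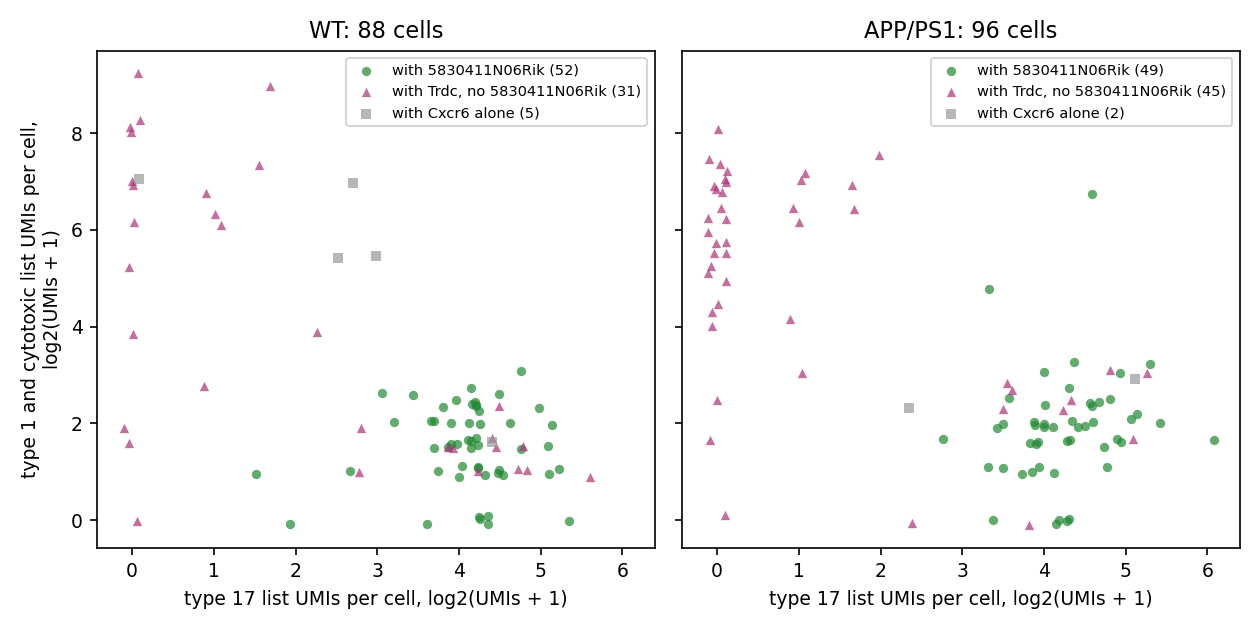
UMIs of the type 17 list (x axis) and of the type 1 and cytotoxic list (y axis) in each of the 88 WT and 96 APP/PS1 cells, both as log2(UMIs + 1) with a small random shift so that points do not cover each other. Cells with 5830411N06Rik (circles) sit at the right and low, and 52 of the 76 cells with Trdc but no 5830411N06Rik (triangles) have more type 1 than type 17 UMIs.

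Of the 15 type 17 genes with at least 20 UMIs in both kinds of cell together, 14 were higher in the 5830411N06Rik+ than in the Trdc+ 5830411N06Rik- cells in both libraries, against 35% of 5315 genes tested. Maf, a transcription factor of interleukin 17-producing γδ T cells, had 643 CPM in the 5830411N06Rik+ and 157 CPM in the Trdc+ 5830411N06Rik- cells, against 95.5 CPM in CD8 T cells. Blk, a Src-family kinase best known from B cells, had 365 and 97.1 CPM, against 3.74 CPM in CD8 T cells. Sox13, another transcription factor of these cells, had 101 and 37.1 CPM and no UMI in CD8 T or NK cells. The receptors of the programme followed the same order: Il23r, the interleukin 23 receptor, had 65.8 and 8.57 CPM and Ccr6 174.8 and 31.4 CPM. Rora, an orphan nuclear receptor, had 498 and 214 CPM, Tmem176a 553 and 189 CPM and the costimulatory receptor Icos 109 and 31.4 CPM. Il1r1, the interleukin 1 receptor that acts with interleukin 23 on these cells, had 23 UMIs in 18 and 7 UMIs in 6 cells. Il17a itself was sparse. Il17a was found in 26 of the 101 5830411N06Rik+ cells and 3 of the 76 others, and in none of the CD8 T or NK cells. Among the cells that held it, Il17a had a median of 2.5 UMIs in WT and 2 in APP/PS1 cells, with highest values of 7 and 18 UMIs. Il17f was found in 10 cells.

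Cd163l1 (Scart1, the scavenger receptor gene next to 5830411N06Rik) was the exception among the type 17 genes. The pair lies 16138 bases apart on chromosome 7, with Cd163l1 at chr7:140218267-140231145. Cd163l1 had 109 CPM in the 5830411N06Rik+ cells and 186 CPM in the Trdc+ 5830411N06Rik- cells, and it was found in 19.8% and 18.4% of them. Its level was higher in the Trdc+ 5830411N06Rik- cells in both libraries, with 220.2 against 59.7 CPM in WT and 161 against 153 CPM in APP/PS1, where the intervals overlapped. In APP/PS1, 1 Trdc+ 5830411N06Rik- cell, the one with the most haemoglobin UMIs, held 12 UMIs of Cd163l1. The order of the APP/PS1 levels without this cell was not tested, so it may rest on it. The shares of cells with a UMI ran opposite ways in the libraries. In WT it was found in 6 of 52 5830411N06Rik+ cells (11.5%) and 8 of 31 Trdc+ 5830411N06Rik- cells (25.8%), and in APP/PS1 in 14 of 49 (28.6%) and 6 of 45 (13.3%), with intervals that overlapped. Cd163l1 and Il17a shared 3 cells, which is 8.82% of the Cd163l1+ cells and 10.3% of the Il17a+ cells. Of all 184 cells, 15.8% held Il17a and 18.5% held Cd163l1, so the overlap is too small a count to read as a separation. No CD8 T or NK cell had a UMI of Cd163l1.

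The type 1 and cytotoxic genes ran the other way, and 15 of the 16 with at least 20 UMIs in both together were higher in the Trdc+ 5830411N06Rik- cells in both libraries, against 23% of genes tested. Ccl5, a chemokine of effector T and NK cells, had 9003 CPM in those cells and 169 CPM in the 5830411N06Rik+ cells. It was found in 14.9% of the 5830411N06Rik+ cells, no more than background, since 13.9% of neutrophils held a Ccl5 UMI at a lower median depth (2570 and 2741 UMIs per cell). The 169 CPM rested mostly on 1 APP/PS1 cell with 76 Ccl5 UMIs, while no WT 5830411N06Rik+ cell held more than 1. Gzma, which encodes granzyme A, had 2746 and 13.2 CPM, and Nkg7, a cytotoxic granule protein, had 1009 and 37.6 CPM. Eomes had 65.7 CPM against 1.88, and Tbx21, which encodes T-bet, had 34.3 CPM against 0. Ifng had 42.9 CPM against 0 in the 5830411N06Rik+ cells. Prf1 and Gzmb had 134 and 271 CPM in the Trdc+ 5830411N06Rik- cells and 3.76 CPM each in the 5830411N06Rik+ cells. The killer lectin receptor Klrd1 had 354 CPM against 7.52, and Klrc1 had 251 against 1.88. Klrk1, the activating receptor NKG2D, did not follow this split. It had 297 CPM in the Trdc+ 5830411N06Rik- cells and 259 CPM in the 5830411N06Rik+ cells, found in 38 of 76 and 65 of 101 of them, against 0.989% of neutrophils. Il2rb, a chain of the receptors for interleukins 2 and 15, was found in 71.1% and 51.5% of them, against 1.16% of neutrophils.

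NK markers were found mainly in the Trdc+ 5830411N06Rik- cells. The sum of Ncr1, Klrb1c, Klre1, Klra8 and Eomes was 423 CPM in the Trdc+ 5830411N06Rik- cells and 7.52 CPM in the 5830411N06Rik+ cells, against 453 CPM in CD8 T cells and 3012 CPM in NK cells. At least 1 of them was found in 41 of the 184 cells. Klrb1c, the NK1.1 receptor, was found in 24 of the 76 Trdc+ 5830411N06Rik- cells (31.6%), 7 of 31 in WT and 17 of 45 in APP/PS1, and in 1 of the 101 5830411N06Rik+ cells. Ncr1, which defined the NK cells here, was found in 8 of the 184 cells. A γ constant UMI was held by 55 of the 76 Trdc+ 5830411N06Rik- cells (72.4%) and by 89 of the 101 5830411N06Rik+ cells (88.1%). Whether some of the former were NK cells with stray CD3 UMIs was not tested. Cd79b, a signalling chain of the B cell receptor, was found in 44.6% of the 5830411N06Rik+ cells at 130 CPM and in 10.5% of the Trdc+ 5830411N06Rik- cells. The B cell gene Ms4a1, which the rule did not use, had no UMI in any of the 184 cells, and CD8 T and NK cells had Cd79b in 0.701% and 0.543% of cells, with neutrophils at 0.447%.

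**Figure D2:**
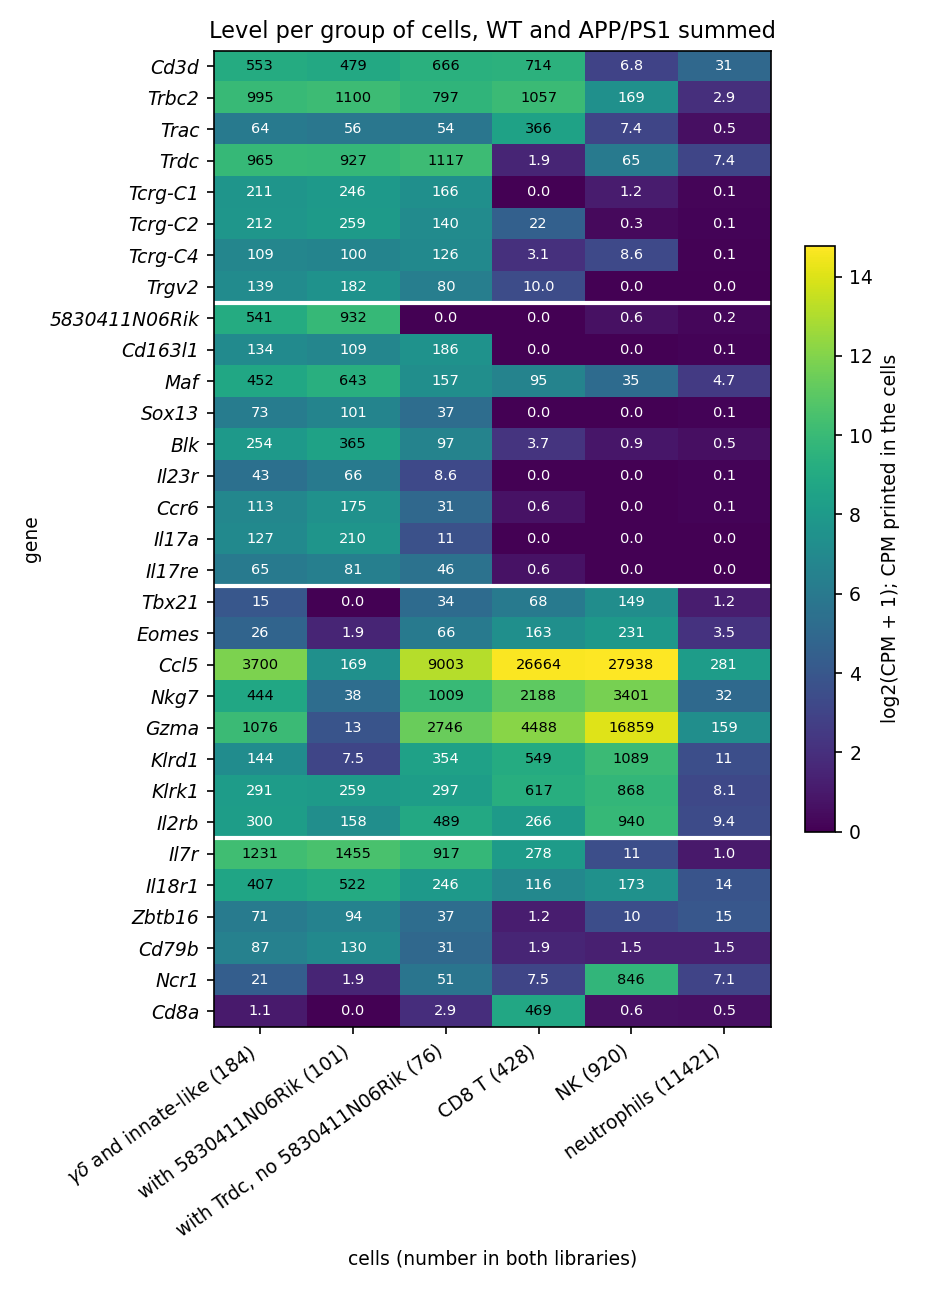
Level of 31 genes (rows) in groups of cells (columns), with the UMIs of both libraries summed. Colour is log2(CPM + 1) and each box prints the CPM, for example 9003 CPM of Ccl5 in cells with Trdc but no 5830411N06Rik and 169 CPM in cells with 5830411N06Rik. The latter rested mostly on 1 APP/PS1 cell with 76 Ccl5 UMIs.

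Lists of innate-like, recirculating and resident T cell genes had sums closer to those of the other cells. The innate-like list summed to 1267 CPM here, 968 CPM in CD8 T cells and 2722 CPM in NK cells. The naive and recirculating list had 3678 CPM here, 3433 CPM in CD8 T cells, 3530 CPM in NK cells and 3644 CPM in neutrophils. The memory, residency and activation list had 2566 CPM here, 1498 CPM in CD8 T cells, 2151 CPM in NK cells and 1736 CPM in neutrophils. Single members differed more. Il18r1, a receptor chain for interleukin 18, had 407 CPM and was found in 76.1% of the cells, against 29.4% of CD8 T cells, 41.0% of NK cells and 3.56% of neutrophils. Zbtb16 (PLZF) had 70.9 CPM here and 1.25 CPM in CD8 T cells. It was found in 50 cells, of which 14 held Trac and 37 held 5830411N06Rik. Il7r, the receptor for the survival cytokine interleukin 7, had 1455 CPM in the 5830411N06Rik+ cells and 917 CPM in the Trdc+ 5830411N06Rik- cells, against 278 CPM in CD8 T cells and 10.7 CPM in NK cells. Ikzf2 (Helios) had 193 CPM, against 38.1 CPM in CD8 T cells. Itgae, the αE integrin chain of epithelial T cells, had 128 CPM, of which the 5830411N06Rik+ cells had 192 and the others 42.9. The inhibitory receptors Pdcd1, Lag3 and Tigit had 1, 1 and 0 UMIs in all cells. Rgs1, a regulator of G protein signalling that resident T cells express, had 814 CPM, against 406 CPM in CD8 T cells, and the early activation marker Cd69 had 385 against 283 CPM. S1pr1, which lets T cells leave tissue for blood, had 310 CPM here, 226 CPM in CD8 T cells and 9.83 CPM in NK cells. Among chemokine receptors Ccr2 was the most counted at 344 CPM, and Ccr10 had 117 CPM here, 0 UMIs in CD8 T cells and 0.298 CPM in NK cells.

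The 7 cells chosen by Cxcr6 alone, 5 in WT and 2 in APP/PS1, had neither Trdc nor 5830411N06Rik and were too few to compare. Trac was found in 4 of them and a γ constant gene in 5. None held Cd163l1, Il17a or Ncr1. Of these 7 cells 4 had more type 1 UMIs, 2 had more type 17 UMIs and 1 had as many of either.

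Against the CD8 and CD4 T cells of the same library (177 cells in WT and 258 in APP/PS1, nearly all CD8), 312 of 5423 genes (5.75%) were over 2-fold higher in the γδ and innate-like cells in both libraries and 44 genes (0.811%) over 2-fold lower in both. Genes other than mitochondrial ones and those of the rule entered with at least 20 UMIs in the γδ and innate-like cells, whatever their level in the others, so genes low in these cells were left out and the counts in either direction cannot be set against each other. The 15 genes with the highest smaller ratio, the choosing genes left out, were Abi3bp, Tcrg-C1, Zbtb16, Ccr6, Serpinb1a, Mmp25, Cd79b, Blk, Ccr10, Plxnd1, Cd163l1, Cryba4, Nav2, Il17re and Pxdc1. A reference with no UMI was set to 3 UMIs, and those with 1 or 2 UMIs were used as they were. With all of these set to 3 UMIs, 11 of the 15 were named again, and Zbtb16, Cd79b, Il17re and Pxdc1 were not. Abi3bp, an extracellular matrix protein, had 251 CPM in the WT and 189 CPM in the APP/PS1 cells and no UMI in the T cells, so its log2 ratio was at least 5.97 and 5.81 against 3 UMIs. It had 289 CPM in the 5830411N06Rik+ and 111 CPM in the Trdc+ 5830411N06Rik- cells. Serpinb1a, an inhibitor of neutrophil proteases, had 186 and 199 CPM in WT and APP/PS1 cells, against 3 UMIs in the T cells of either library and 28.8 CPM in neutrophils. Mmp25, a membrane metalloprotease, had 263 and 203 CPM, and neutrophils had 79.4 CPM. Against NK cells 407 genes (7.51%) were over 2-fold higher and 157 (2.9%) over 2-fold lower in both libraries. Of the 15 highest against NK cells, 6 were also among the 15 against T cells. The others were Il7r, Tcrg-C2, Actn2, Cd3d, Trgv2, Crmp1, Tnfrsf25, Kcnn4 and Kcnk1. With every reference under 3 UMIs set to 3, 11 of the 15 were named again, and Plxnd1, Crmp1, Tnfrsf25 and Kcnn4 were not. Actn2, a muscle α-actinin, had 210 CPM in the WT and 227 CPM in the APP/PS1 cells and no UMI in NK cells, and 303 CPM in the 5830411N06Rik+ cells. Tnfrsf25, the receptor for TL1A, had 97.9 and 127 CPM, against 1.59 and 0.476 CPM in NK cells. Of the 24 genes named in these comparisons, 22 were higher in the 5830411N06Rik+ than in the Trdc+ 5830411N06Rik- cells with the libraries summed, against 56.9% of genes tested, and 4 of the 24 were in the type 17 list. Cd163l1 and Cd3d were higher in the Trdc+ 5830411N06Rik- cells. The 24 genes were picked from these same cells for their high levels, and at a higher UMI limit than the genes tested. Their count is therefore a description and supports nothing.

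The comparison of APP/PS1 with WT mice asked whether these cells differed in number and in gene levels. They made up 0.541% (0.434% to 0.666%) of 16281 WT cells that passed the UMI and mitochondrial limits and 0.574% (0.465% to 0.701%) of 16725 APP/PS1 cells. The difference was 0.0335 percentage points, with an interval of -0.129 to 0.196, so none was detectable at this depth. Of all T cells they made up 27.2% (88 of 324) in WT and 21.2% (96 of 453) in APP/PS1 mice, a difference of -5.97 points with an interval of -12.2 to 0.0916. Under some alternatives, given at the end, the interval of this difference lay below 0. CD8 T cells numbered 172 in the WT and 256 in the APP/PS1 library. With 1 enriched library per genotype, effects of the enrichment on these shares cannot be told apart from those of genotype. Cells with 5830411N06Rik were 59.1% of the WT and 51.0% of the APP/PS1 cells, a difference of -8.05 points (-21.9 to 6.25). Cells with Trdc but no 5830411N06Rik were 35.2% and 46.9%, a difference of 11.6 points (-2.56 to 25.2). Within the latter, 18 of 31 WT cells (58.1%) and 34 of 45 APP/PS1 cells (75.6%) had more type 1 than type 17 UMIs, and the intervals of 39.1% to 75.5% and 60.5% to 87.1% overlapped.

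**Figure D3:**
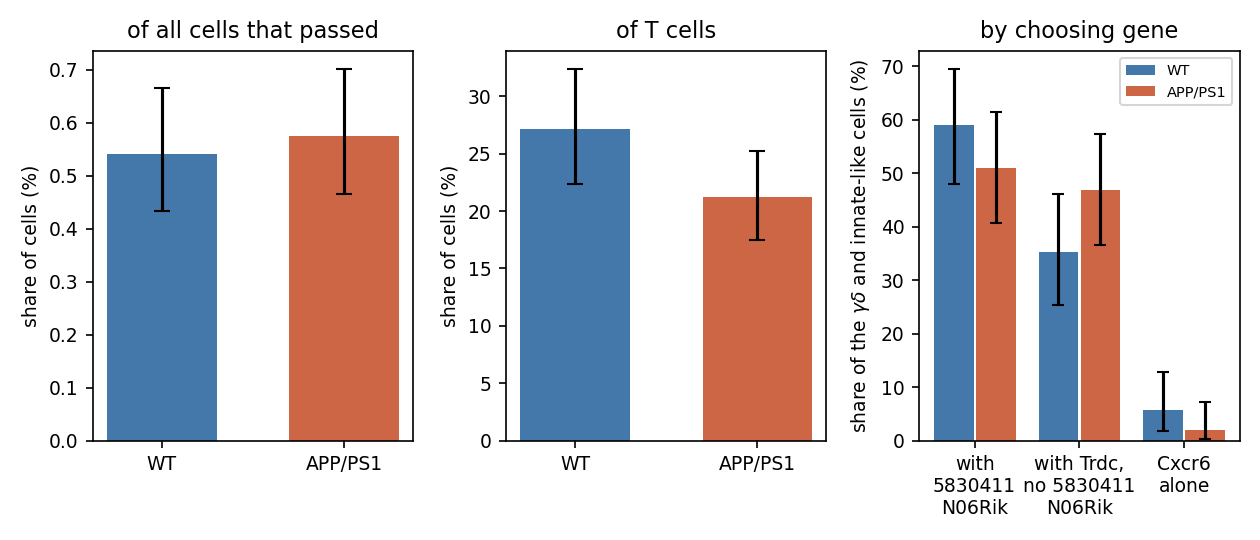
Share of γδ and innate-like cells among all cells that passed (left) and among T cells (middle), and the share of these cells by choosing gene (right), in WT and APP/PS1 libraries. Bars are the shares in percent, 1 library each, and lines are exact 95% counting intervals, which overlap between genotypes in every pair.

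Across 5443 genes with at least 20 UMIs in these cells, the mitochondrial genes and those of the rule included, 170 (3.12%) were over 2-fold higher and 157 (2.88%) over 2-fold lower in APP/PS1 than in WT cells, 6.01% either way. The median log2 ratio was -0.03. Of 15 tested type 17 genes, none was over 2-fold higher and 1, Il17re, was over 2-fold lower, and their median log2 ratio was -0.23. The counting interval of the ratio lay below 0 for 5 of them, against 5.05% of all genes tested, and above 0 for 1, against 4.43%. The type 17 list summed to 2934 CPM in the WT and 2434 CPM in the APP/PS1 cells, a log2 ratio of -0.27 (-0.39 to -0.15). Within the Trdc+ 5830411N06Rik- cells it had 1762 CPM in the WT and 972 CPM in the APP/PS1 cells, a log2 ratio of -0.86 (-1.13 to -0.58). Within the 5830411N06Rik+ cells, which held most of its UMIs (933 in WT and 973 in APP/PS1), it had 3712 and 3466 CPM, a log2 ratio of -0.10 (-0.23 to 0.03), and the difference between these groups was not tested. Maf had 518 and 396 CPM, Blk 308 and 209 CPM and Tmem176a, a membrane protein, 482 and 346 CPM, with log2 ratios of -0.39, -0.56 and -0.48 and intervals below 0. Il17re, a receptor subunit for interleukin 17C, had 97.9 CPM in 27 WT cells and 38.2 CPM in 13 APP/PS1 cells, a log2 ratio of -1.36 (-2.23 to -0.54). Il17a ran the other way with 93.1 CPM in 12 WT cells and 155 CPM in 17 APP/PS1 cells, a log2 ratio of 0.73 (0.16 to 1.33). Of the 77 APP/PS1 UMIs of Il17a, 1 cell held 18, and without the top cell of each library the ratio was 0.63 (-0.01 to 1.30).

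The type 1 and cytotoxic list summed to 7596 CPM in the WT and 6422 CPM in the APP/PS1 cells, a log2 ratio of -0.24 (-0.31 to -0.17), but the mean over cells gave 0.22, the opposite direction. Of its 17 tested genes 2 were over 2-fold higher and 2 over 2-fold lower, against 3.12% and 2.88% of all genes tested. The median log2 ratio of the 17 was 0.18, the opposite sign to the sum. Gzma had 1690 CPM in 11 WT cells and 559 CPM in 16 APP/PS1 cells, a log2 ratio of -1.60 (-1.80 to -1.39). Of the 708 WT UMIs of Gzma, 1 cell held 243 and the next 231, and the log2 ratio was -1.50 without the top cell of each library. Gzmb had 172 and 78.4 CPM, a log2 ratio of -1.13 (-1.73 to -0.55). Prf1, which encodes the pore-forming perforin, was higher in APP/PS1 cells, with 28.6 CPM in 6 WT cells and 74.4 CPM in 17 APP/PS1 cells, a log2 ratio of 1.38 (0.41 to 2.45). Cd27 had 26.3 and 56.3 CPM, a log2 ratio of 1.10 (0.05 to 2.25). The receptors Klrd1 (115 and 169 CPM) and Klrc1 (76.4 and 125 CPM) had log2 ratios of 0.56 (0.03 to 1.10) and 0.71 (0.07 to 1.37). More APP/PS1 than WT cells held a Ccl5 UMI, 48 of 96 against 25 of 88, while its level was 3831 CPM in the WT and 3590 CPM in the APP/PS1 cells. After each cell was thinned to 1000 UMIs the difference in the share with Ccl5 was 13.8 points in place of 21.6. In the Trdc+ 5830411N06Rik- cells, which held most of its UMIs, the type 1 list had 18708 CPM in the WT and 14246 CPM in the APP/PS1 cells, a log2 ratio of -0.39 (-0.47 to -0.32). A single WT cell held 565 of the 2718 WT UMIs, and the log2 ratio was -0.28 without the top cell of each library. The median cell went the other way, from 6 UMIs in WT to 45 in APP/PS1. In the 5830411N06Rik+ cells it had 477 CPM in the WT and 955 CPM in the APP/PS1 cells, and 1 APP/PS1 cell held 108 of the 268 UMIs. Without the top cell of each library the log2 ratio there was 0.34 (-0.01 to 0.70).

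The naive and recirculating list went from 3862 CPM in WT to 3523 CPM in APP/PS1 cells, a log2 ratio of -0.13 (-0.23 to -0.03). Within it, Il7r had 1459 and 1039 CPM (-0.49, interval -0.66 to -0.32) and Tcf7, a transcription factor of self-renewing T cells, 391 and 273 CPM (-0.52, interval -0.86 to -0.18). The T cell receptor and CD3 list had a log2 ratio of -0.22 (-0.33 to -0.12), and none of its 9 tested genes was over 2-fold apart. Cd247, the CD3 ζ chain, had 308 and 213 CPM, a log2 ratio of -0.53 (-0.92 to -0.15). The innate-like list had a log2 ratio of -0.07 (-0.24 to 0.10). Of its 9 tested genes 1 was over 2-fold higher and 1 lower, against 3.12% and 2.88% of all genes tested. The higher one was Cd160, a receptor of cytotoxic lymphocytes, with 19.1 CPM in 6 WT cells and 46.2 CPM in 10 APP/PS1 cells, a log2 ratio of 1.28 (0.06 to 2.65). The lower one was Slamf1, an adhesion receptor, with 71.6 CPM in 20 WT cells and 20.1 CPM in 9 APP/PS1 cells, a log2 ratio of -1.83 (-3.03 to -0.76). The memory and residency list (-0.11, interval -0.23 to 0.01) and the chemokine receptor list (-0.06, interval -0.24 to 0.12) had intervals that included 0. None of 9 tested genes of the former was over 2-fold apart, and 1 of 8 of the latter was lower, against 2.88% of all genes tested.

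**Figure D4:**
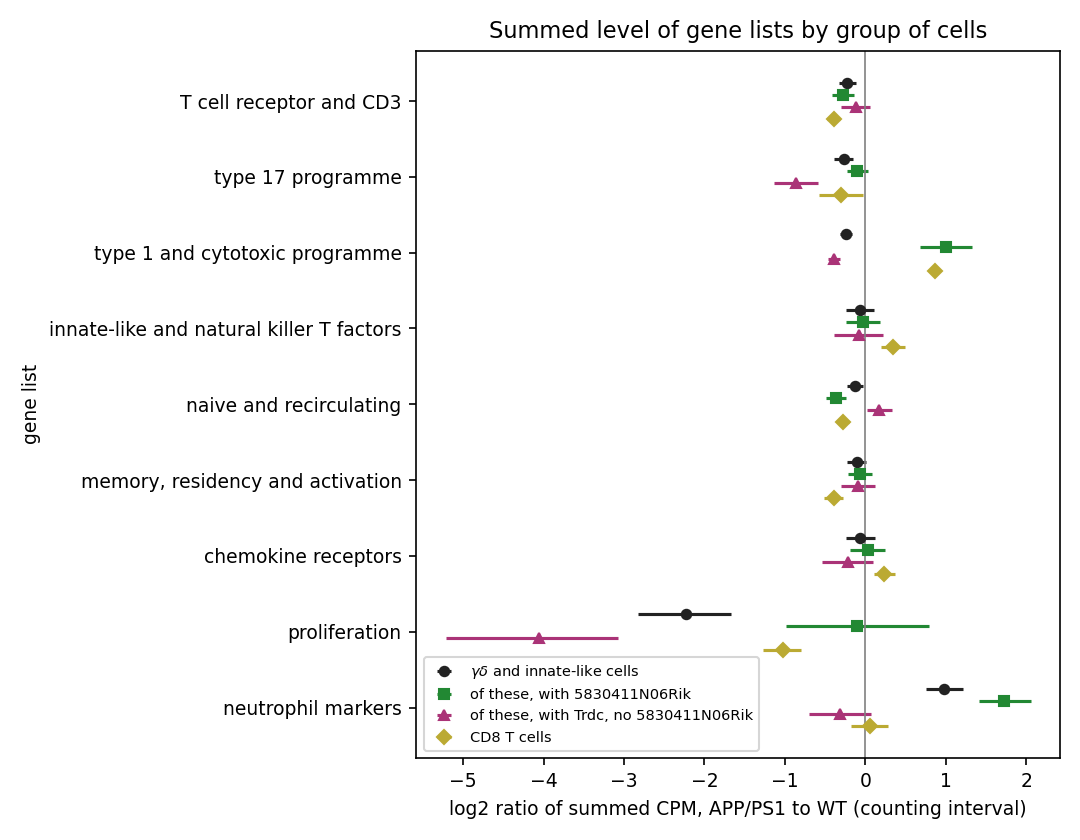
Log2 ratio of the summed CPM of each gene list, APP/PS1 to WT (x axis), with exact 95% counting intervals, in the 184 γδ and innate-like cells, in those with 5830411N06Rik, in those with Trdc but no 5830411N06Rik, and in CD8 T cells. The type 1 list lies at -0.24 in these cells and at 0.86 in CD8 T cells, and the neutrophil markers at 0.98 and 0.06.

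The proliferation genes had few UMIs, and 1 cell held most of those in WT. Mki67, Top2a, Birc5 and Stmn1 summed to 310 CPM in the WT and 66.3 CPM in the APP/PS1 cells, a log2 ratio of -2.23 (-2.82 to -1.67). All 3 tested genes of this list were over 2-fold lower, against 2.88% of all genes tested. The share of cells with a UMI of any gene of the list was 18.2% (16 of 88) in WT and 17.7% (17 of 96) in APP/PS1. A single WT cell held 71 of the 130 WT UMIs, 92 of the 106 UMIs of the linker histone Hist1h1b and 243 of Gzma. The next WT cell held 27 UMIs of the list, and leaving out the top cell of each library did not remove it. The log2 ratio without the top cell of each library was -1.68 (-2.46 to -0.95) for the list and -1.48 (-3.15 to -0.01) for Hist1h1b. The Trdc+ 5830411N06Rik- cells held 106 of the 130 WT UMIs of the list, and it had 729.6 CPM in the WT and 44.0 CPM in the APP/PS1 cells there, a log2 ratio of -4.05 (-5.22 to -3.07). Without the top cell of each library the log2 ratio in these cells was -3.72 (-5.67 to -2.24), and the APP/PS1 top cell had held 5 of 9 UMIs. The WT cell with 27 UMIs was in this group, so that ratio rested largely on it. In the 5830411N06Rik+ cells the list had 91.5 and 85.5 CPM, a log2 ratio of -0.10 (-0.99 to 0.79), and the difference between these groups was not tested.

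The genes with the highest ratios, among those with at least 50 UMIs in a library, were haemoglobin genes and genes that neutrophils also hold. Hbb-bt, Hbb-bs, Hba-a2 and Hba-a1 had log2 ratios of 4.11, 3.86, 3.56 and 3.26. A single APP/PS1 cell held 4371 of the 4701 haemoglobin UMIs, 45.6% of its own UMIs. Leaving out the top cell of each library gave these genes log2 ratios of 0.03, -0.06, 0.24 and -0.08. Egr1, an immediate early transcription factor, had 76.4 CPM in 12 WT cells and 386 CPM in 35 APP/PS1 cells, a log2 ratio of 2.34 (1.79 to 2.92). It was found in 22 of 49 5830411N06Rik+ cells of APP/PS1 mice and in 9 of 52 of WT mice. Egr1 was also higher in APP/PS1 than in WT NK cells (0.94) and neutrophils (0.67, interval 0.64 to 0.69), and in CD8 T cells it had 0.42 (-0.11 to 0.96). Cxcr2, the neutrophil chemokine receptor, had 21.5 and 109 CPM, Ccr1 28.6 and 125 CPM and Lcn2, a granule protein, 26.3 and 100.5 CPM, with log2 ratios of 2.34, 2.12 and 1.94. Nfkbiz, an inhibitor of NF-κB, had 31.0 and 107 CPM and Slfn1 31.0 and 100.5 CPM, with log2 ratios of 1.78 and 1.70. Slfn1 had 0.81 in NK cells and 0.38 in neutrophils, and Nfkbiz 0.55 and 0.09. Without the top cell of each library the log2 ratios were 2.85 for Egr1, 3.18 for Cxcr2 and 2.43 for Ccr1. Neutrophils held all 6 of these genes at 471 CPM or more, with 2291 CPM for Egr1 and 1372 CPM for Cxcr2.

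Neutrophil markers, which include Cxcr2 from the genes above, were also higher in the APP/PS1 cells. Summed over Retnlg, Csf3r, Cxcr2, Mmp9, G0s2 and Hdc they had 525 CPM in the WT and 1037 CPM in the APP/PS1 cells, against 21801 CPM in neutrophils. Of the 6 markers, 3 (Retnlg, Csf3r and the already named Cxcr2) were over 2-fold higher, against 3.12% of all genes tested. The most abundant of these markers was Retnlg, with 189 and 398 CPM. The 10 cells with the most held 66.4% of these UMIs in WT and 75.2% in APP/PS1, and the median cell of either library held 1. The 5830411N06Rik+ cells had 422 CPM of them in the WT and 1400 CPM in the APP/PS1 library, and the Trdc+ 5830411N06Rik- cells 743 and 596 CPM. With the S100a8 and S100a9 limit at 0.5%, which left 80 WT and 83 APP/PS1 cells, Egr1 kept a log2 ratio of 2.80 (1.72 to 4.07), Nfkbiz 1.56 (0.59 to 2.64) and Slfn1 1.66 (0.39 to 3.12). Under that limit Cxcr2 had 2.11 (-0.16 to 5.36), Ccr1 0.68 (-0.93 to 2.42) and Lcn2 -0.06 (-1.48 to 1.36). In turn, T cell genes were found in neutrophils, here taken without the limit on CD3 (5457 WT and 6123 APP/PS1 cells), where Cd3d had 11.5 CPM in the WT and 53.9 CPM in the APP/PS1 library and Trdc 4.88 and 11.3 CPM. Other T cell genes were closer there, with 3.07 and 2.80 CPM for Cd3e, 6.51 and 8.26 CPM for Cd3g and 9.39 and 8.15 CPM for Trbc2. Monocyte markers had 678 and 858 CPM, with Lyz2 the most abundant and Csf1r at 0 by the rule, and platelet markers 396 and 583 CPM, with Pf4 the most abundant. The part of neutrophil RNA in these results was not tested beyond this limit.

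Among the 10 lowest ratios, besides Hist1h1b, Stmn1, Gzma and Gzmb, stood Gm12840, Lrrfip2, Cd2ap, Rpl29, Trp53inp1 and Erh. Rpl29, a protein of the large ribosomal subunit, was found in 87 of 88 WT and 84 of 96 APP/PS1 cells. It had 1454 CPM in the WT and 699 CPM in the APP/PS1 cells, a log2 ratio of -1.06 (-1.25 to -0.86). It was also lower in CD8 T cells (-1.33), NK cells (-1.02) and neutrophils (-0.80), so the difference between the libraries was not limited to these cells. Gm12840, a predicted gene, had 227 and 76.4 CPM, a log2 ratio of -1.57 here and -1.95 in CD8 T cells, but 1.99 in NK cells and 0.16 in neutrophils. Cd2ap, an adaptor of the T cell adhesion molecule CD2, had 131 CPM in 36 WT cells and 62.3 CPM in 23 APP/PS1 cells, a log2 ratio of -1.08 (-1.76 to -0.41). Lrrfip2, Trp53inp1 and Erh had log2 ratios of -1.17, -1.04 and -1.03.

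**Figure D5:**
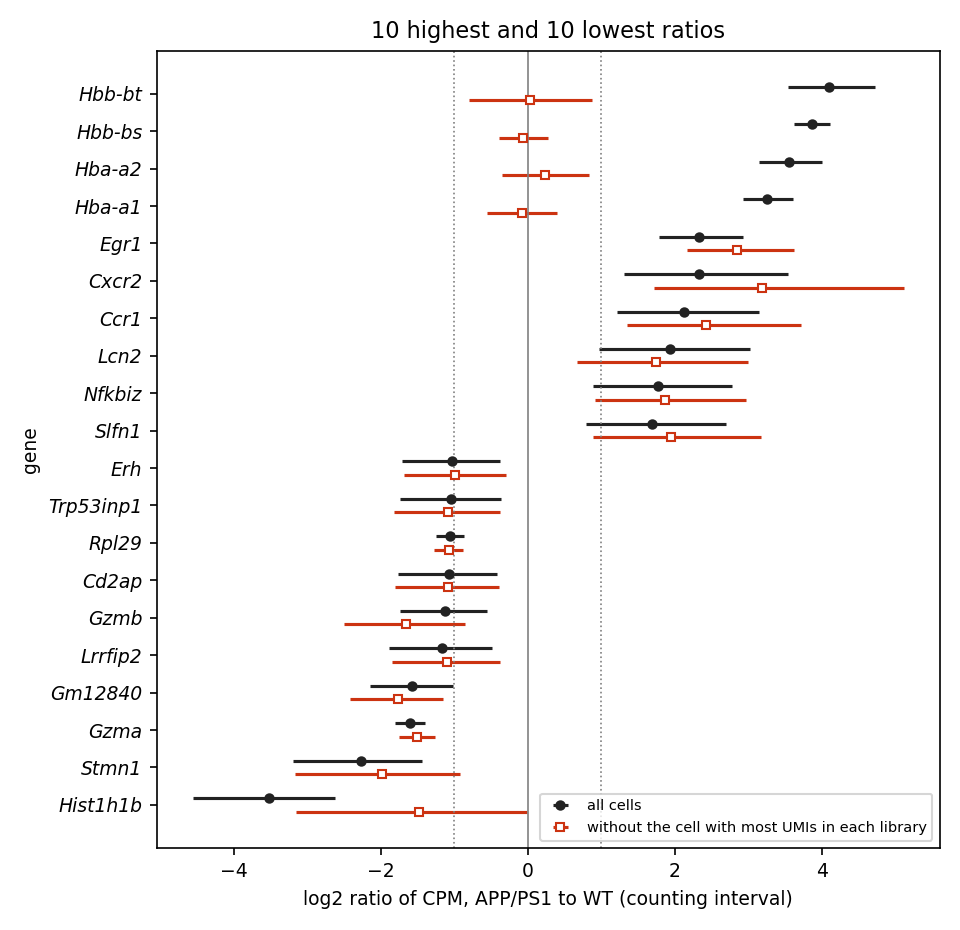
Log2 ratio of CPM, APP/PS1 to WT (x axis), with exact 95% counting intervals, for the 10 genes with the highest and the 10 with the lowest ratios. Black points use all 184 cells and red squares leave out the cell with the most UMIs of the gene in each library, which takes the haemoglobin genes from above 3 to about 0 and Hist1h1b from -3.52 to -1.48.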

How the data were processed

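Single-cell RNA-seq of 1 WT and 1 APP/PS1 library was used. The deposited values are raw counts of UMIs for each gene in each barcode, which the authors made with Cell Ranger 5.0.0 and an mm10 reference per the submitters' processing notes, with no normalization. The counts were read with Python 3.11.15, NumPy 2.4.6, SciPy 1.17.1 and pandas 2.3.3. All barcodes went through the rule given above, and UMIs were summed over the cells of a group. CD8 T cells had Cd8b1, no Cd4 and fewer than 2 UMIs of the choosing genes, CD4 T cells (5 and 2 cells) the reverse, NK cells Ncr1 and no CD3, and neutrophils at least 4% S100a8 and S100a9 UMIs and no CD3. Exact Poisson intervals were used for levels, exact conditional intervals for ratios, Clopper-Pearson intervals for shares and Newcombe intervals for differences (statsmodels 0.14.6), all at the 95% level. The intervals were tested on simulated independent counts only. The clumping of UMIs in single cells, as for Gzma and haemoglobin, was not part of that test.

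A gene was tested for a 2-fold difference with at least 20 UMIs. Genes were named as all members of the lists, the 10 genes at either end of the APP/PS1 to WT ratio when 1 library or the other held 50 UMIs or more, and the 15 highest against T cells and against NK cells. The cells and lists were chosen with earlier results of these data known. Doublets stayed in. The Scrublet threshold of scanpy 1.11.5 did not work in the APP/PS1 library, so leaving out the highest 8% of scores was an alternative. Others were other limits on cells and genes, library sizes by TMM (edgeR 4.0.16, R 4.3.3) or without mitochondrial, ribosomal protein and haemoglobin genes, the mean over cells, and cells thinned to 1000 UMIs. Alternatives that left out single cells, asked for an excess of 10 UMIs of a list, set every reference under 3 UMIs to 3, set the S100a8 and S100a9 limit at 0.5% or asked for a γ constant UMI were chosen after seeing the data. Coordinates and transcripts are those of GENCODE M21 on mm10, and no protein sequences were used here. Some genes of the lists are counted in the list sums but not reported here.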

Additional observations from a re-analysis of the deposited data

Results flagged for a closer look

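The following differences between APP/PS1 and WT cells had opposite signs in the γδ and innate-like cells and in the CD8 T cells of the same libraries. With 1 library per genotype the difference between the cell types was not tested, and each value is a log2 ratio of CPM. The type 1 and cytotoxic list had -0.24 in the γδ and innate-like cells and 0.86 in the CD8 T cells, where its level was 25937 CPM in the WT library and 47208 CPM in the APP/PS1 library. Its sign in the γδ and innate-like cells was not stable. The mean over cells gave 0.22, the median of its genes was 0.18, and the cells between the 5th and 95th percentiles of genes and UMIs gave -0.0080. Gzma, the granzyme A gene, had -1.60 against 0.73, and Gzmb, the granzyme B gene, had -1.13 against 0.63. Without the top cell of each library Gzma had -1.50 and Gzmb -1.65 in the γδ and innate-like cells. Cx3cr1, a chemokine receptor of effector T cells, had -1.76 against 0.82. It rested on 20 WT and 7 APP/PS1 UMIs, and without the top cell of each library its value was -2.49 (-4.93 to -0.65).

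The erythroid list had 3.71 against -0.91. Its members Hbb-bt (4.11 against -1.11), Hbb-bs (3.86 against -0.90), Hba-a2 (3.56 against -0.88) and Hba-a1 (3.26 against -0.89) all rested on 1 APP/PS1 cell. Without the top cell of each library the erythroid list had -0.02 (-0.25 to 0.22).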

How the results depend on the processing

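Of the alternatives tried on the shares, the list sums and the counts of genes and cells, 180 stayed close to the value reported, 12 moved and 1 reversed, and of those on single genes 631 stayed close, 41 moved and 10 reversed. A value stayed close if it lay within the interval of the value reported or, for a count, within a set fold of it. A change of sign was called reversed only where the reported interval excluded 0. Genes with few UMIs have wide intervals, so their values could shift far and still count as close. The difference in the share of T cells ran from -5.31 to -8.81 points. Its interval of -15.5 to -2.33 lay below 0 with a mitochondrial limit of 5%, and this was not the only such alternative. With S100a8 and S100a9 under 2%, for example, the chosen cells were 86 of 315 WT and 90 of 438 APP/PS1 T cells. Those with a γ constant UMI were 77 of 324 and 72 of 453. The type 1 and cytotoxic list had a log2 ratio of -0.31 with at least 3 UMIs of the choosing genes, -0.40 with at least 2 CD3 UMIs, -0.0080 between the 5th and 95th percentiles of genes and UMIs, and -0.15 without the highest 8% of Scrublet scores. It had -0.47 in cells with a γ constant UMI, -0.12 without its top cell, and reversed to 0.22 as a mean over cells. As a mean over cells the type 17 list had -0.40 and the proliferation list -1.27. With at least 10 UMIs per gene 437 genes were over 2-fold higher and 431 lower, and with at least 50 UMIs 45 and 27. With library sizes by TMM 203 genes were over 2-fold higher and 141 lower, and as a mean over cells 193 and 188. Without the highest 8% of Scrublet scores Hbb-bt (-0.94), Hbb-bs (-0.62), Hba-a2 (-0.22) and Hba-a1 (-0.58) reversed. Without the cell with the most haemoglobin in each library Hbb-bt had -0.019, Hbb-bs -0.059 and Hba-a1 -0.10, and without the top cell of each gene Hbb-bs had -0.059 and Hba-a1 -0.079. Lcn2 reversed to -0.061 with the S100a8 and S100a9 limit at 0.5%. Apart from the single cells left out, the cause was not tested. No paired analysis was possible because there was 1 library per genotype. The 3 pooled mice of a genotype could not be told apart, so no value here covers the spread between mice, and a gene with 20 UMIs in these cells has a wide interval.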
